A study of Mus musculus with 8 samples.

Results

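The genes described here were the 7 members of the mouse major histocompatibility complex (MHC) class II pathway named H2-Aa, H2-Ab1, H2-Eb1, H2-DMa, H2-DMb1, Cd74 and Ciita. They were 7 of the 21883 protein-coding genes that RefSeq's table for GRCm38.p6 places on chromosomes 1 to 19, X and Y. They were chosen by name, and the locus of each was its gene body plus 20 kb on each side. The histone acetylation marks H3K27ac and H3K9ac, which lie at active promoters and, for H3K27ac, enhancers, had been mapped in crypts of the small intestine by CUT&Tag, an assay in which an antibody guides a transposase to a mark. All mice were male C57BL/6J animals of 9 weeks with no transgene named. In the Fed and Fast groups without tetracycline the antibiotic was not given, in the Fed and Fast groups with tetracycline it was given for 21 days, and Fast mice went without food for 24 h. Each mark and group was 1 sample with 2 deposited peak lists, called lists 1 and 2 here, so that there were 8 samples and 16 lists. The labels do not give the mice behind a list, so the p-values below measure only the spread between lists, which may be technical.

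MHC class II molecules are pairs of an alpha and a beta chain that show peptides from taken-up proteins to CD4 T cells. H2-Aa and H2-Ab1 encode the chains of the I-A molecule, and H2-Eb1 encodes the beta chain of I-E, whose alpha chain C57BL/6 mice do not make. Cd74, the invariant chain, holds the new molecule in an inactive state, and H2-DM, made by H2-DMa and H2-DMb1, loads the peptide. Ciita is the co-activator on which transcription of these genes depends. Dendritic cells, macrophages and B cells express the pathway, and intestinal epithelial cells, stem cells included, can also express it, with interferon gamma and signals of the microbiota as known inducers.

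Ciita binds no DNA itself and is recruited by factors that sit on the X and Y boxes before a class II gene. RefSeq's promoter table held entries for 4 of the 7 members, and the 250 bases before the start of 3 of them are shown. Regions with an H3K27ac peak in both Fed lists without tetracycline, but not in every list, covered these windows. Differences between groups at these regions were not tested. The capitals mark the X box core, searched as GNAACT, and the reversed CCAAT of the Y box, searched as ATTGG. H2-Aa lies on the minus strand (chr17:34287824-34288073), H2-Eb1 (chr17:34305617-34305866) and H2-DMb1 (chr17:34152941-34153190) lie on the plus strand, all in GRCm38.p6.
H2-Aa: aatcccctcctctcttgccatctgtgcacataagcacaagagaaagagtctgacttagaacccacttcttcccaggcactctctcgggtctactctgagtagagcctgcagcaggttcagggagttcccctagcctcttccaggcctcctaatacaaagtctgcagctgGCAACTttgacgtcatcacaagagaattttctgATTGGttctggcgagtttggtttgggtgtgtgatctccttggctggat
H2-Eb1: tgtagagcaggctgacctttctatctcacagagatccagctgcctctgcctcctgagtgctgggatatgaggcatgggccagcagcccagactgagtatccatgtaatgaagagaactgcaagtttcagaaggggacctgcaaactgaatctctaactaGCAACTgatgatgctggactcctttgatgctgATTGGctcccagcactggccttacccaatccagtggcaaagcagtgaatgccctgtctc
H2-DMb1: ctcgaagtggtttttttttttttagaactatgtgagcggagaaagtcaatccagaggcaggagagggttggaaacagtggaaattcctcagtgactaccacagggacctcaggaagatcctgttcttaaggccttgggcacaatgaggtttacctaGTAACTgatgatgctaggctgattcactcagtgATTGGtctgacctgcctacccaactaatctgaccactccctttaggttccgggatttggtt
The 2 boxes stood 27 bases apart in H2-Aa, 26 in H2-Eb1 and 27 in H2-DMb1. With 25 to 30 bases allowed between them and both strands searched, 86 of the 32851 promoters in the table (0.262%) held the pair, while GNAACT alone was in 37.3% and ATTGG alone in 33.8%. The letters and the spacing were set after these sequences had been seen, and a match is a description of the letters only. Neither of the 2 entries of H2-DMa held the pair.

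The lists held 32392 to 68545 peaks for H3K27ac and 17249 to 99050 for H3K9ac, covering 33.1 to 64.2 Mb and 16.5 to 47.3 Mb, and the read depth behind them is unknown. Epithelial markers were present under the crypt label: all 10 of 10 (Epcam, Cdh1, Vil1 and others) had a peak at a gene end in each of the 8 H3K27ac lists, and 8 to 10 did in the H3K9ac lists. A peak list shows where a peak was called and not how much signal it held, so coverage in kb is the length of called peaks. The cells were unsorted as far as the labels say, and in such bulk samples fewer cells of a type and less acetylation per cell cannot be told apart.

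The class II loci carried the most H3K27ac in the Fed mice that had not received tetracycline. Over the 4 separate stretches that the 7 loci form together (314 kb), H3K27ac peaks covered 40.5 and 32.0 kb in the Fed lists without tetracycline and 19.7 and 25.02 kb in the Fast lists without it. With tetracycline they covered 15.3 and 24.0 kb in the Fed lists and 20.4 and 17.03 kb in the Fast lists. The first pair lay above the 6 other lists, which overlapped one another. The same held per Mb covered by the whole list, where the Fed lists without tetracycline had 1.08 and 0.603 kb and the others 0.353 to 0.464 kb. For H3K9ac the union was covered over 15.7 and 23.7 kb in the Fed lists without tetracycline, 16.8 and 13.5 kb in the Fast lists without it, 9.24 and 16.1 kb in the Fed lists with it and 13.9 and 13.1 kb in the Fast lists with it, and the groups overlapped. Per Mb covered by the list they did not: the Fed lists without tetracycline had 0.952 and 0.610 kb and the 6 others 0.295 to 0.496 kb. The list with 0.952 kb covered the least of the H3K9ac lists, 16.5 Mb. This scaling also makes the pattern more common: both Fed lists without tetracycline lay above the 6 others at 3.45% of all genes per Mb, against 0.471% in kb.

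**Figure D1:**
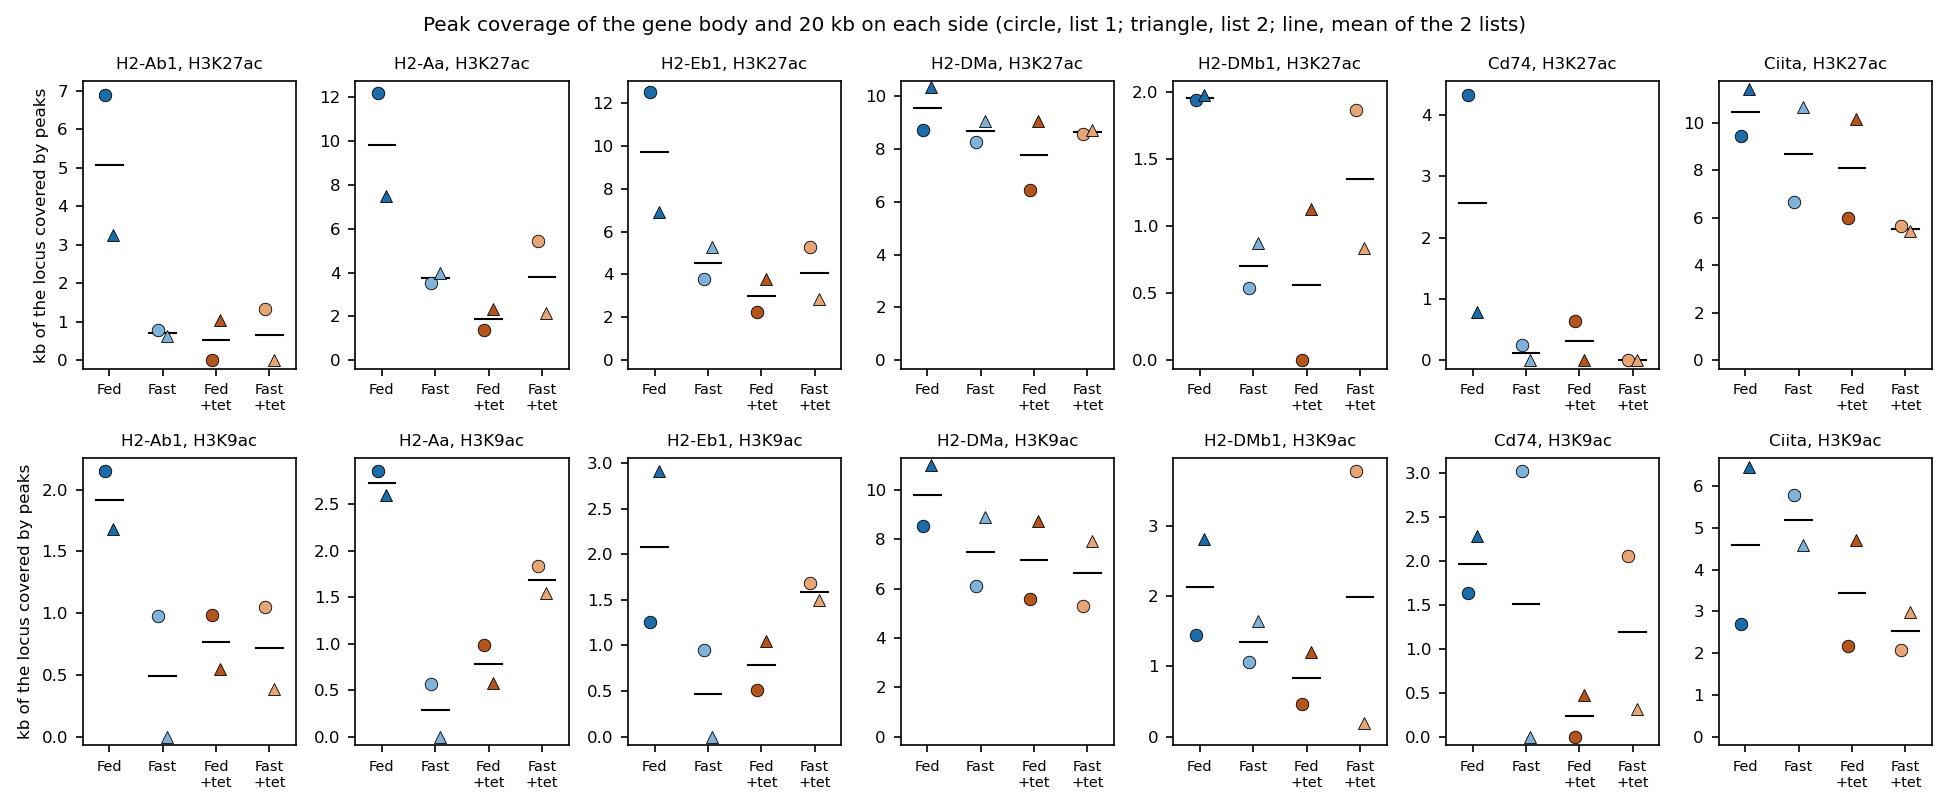
Kilobases of each member's locus covered by H3K27ac peaks (upper row) and H3K9ac peaks (lower row) in the Fed and Fast groups without and with tetracycline (+tet), 2 lists a group, with a line at their mean; each panel has its own scale. In H3K27ac, both Fed lists without tetracycline lie above all others for H2-Ab1, H2-Aa, H2-Eb1, H2-DMb1 and Cd74.

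The locus of H2-Ab1 (chr17:34263227-34269418), the I-A beta chain, showed a wide gap between these groups. H3K27ac peaks covered 6.89 and 3.25 kb of it in the Fed lists without tetracycline, 0.782 and 0.625 kb in the Fast lists without it, 0 and 1.05 kb in the Fed lists with it and 1.32 and 0 kb in the Fast lists with it. The first 2 values lay above all the others, and the other 3 groups overlapped. The group means were 5.07 ± 2.58, 0.704 ± 0.111, 0.526 ± 0.744 and 0.661 ± 0.935 kb (SD, n = 2 lists). The difference with minus without tetracycline was -4.54 kb in Fed mice and -0.04 kb in Fast mice. A region over the gene's lower end (chr17:34262602-34263671) had a peak in both Fed lists without tetracycline and in 1 Fast list with it.

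H2-Aa (chr17:34282744-34287823), the I-A alpha chain, was covered over 12.2 and 7.49 kb in the Fed lists without tetracycline, 3.51 and 3.98 kb in the Fast lists without it, 1.39 and 2.35 kb in the Fed lists with it and 5.46 and 2.13 kb in the Fast lists with it. The Fed lists without tetracycline again stood above the rest, with a mean of 9.84 ± 3.32 kb (SD, n = 2 lists) against 3.75 ± 0.332, 1.87 ± 0.677 and 3.79 ± 2.35 kb. In Fed mice the difference with minus without tetracycline was -7.98 kb, against 0.05 kb in Fast mice. The region over the start (chr17:34287509-34288271), which contains the H2-Aa promoter shown above, had a peak in both Fed lists without tetracycline, in 1 Fast list without it, in no Fed list with it and in 1 Fast list with it.

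H2-Eb1 (chr17:34305867-34316674), the I-E beta chain, had 12.5 and 6.89 kb of H3K27ac in the Fed lists without tetracycline, 3.77 and 5.30 kb in the Fast lists without it, 2.25 and 3.77 kb in the Fed lists with it and 5.26 and 2.86 kb in the Fast lists with it. The group means were 9.69 ± 3.96, 4.54 ± 1.08, 3.01 ± 1.07 and 4.06 ± 1.70 kb (SD, n = 2 lists). Its difference with minus without tetracycline was -6.68 kb in Fed mice and -0.47 kb in Fast mice. The region over its start (chr17:34305421-34306849), which contains the H2-Eb1 promoter shown above, had peaks in the same numbers of lists as at the H2-Aa start: 2, 1, 0 and 1. H2-Eb1 was marked by H3K27ac, that is, it had a peak within 1 kb of a gene end, in 6 of 8 lists, the exceptions being both Fed lists with tetracycline.

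The loci of these 3 genes overlap, so that a peak between them counts for more than 1 gene. Taken once, the stretch from 20 kb before H2-Ab1 to 20 kb after H2-Eb1 (chr17:34243227-34336674) held 20 and 11 H3K27ac peaks in the Fed lists without tetracycline. It held 8 and 8 in the Fast lists without it, 3 and 8 in the Fed lists with it and 10 and 4 in the Fast lists with it. Merged over the lists, these peaks made 22 regions, of which 20 had a peak in a Fed list without tetracycline and 9 had one in both. Each of the other 3 groups had 3 regions with a peak in both of its lists. One region was in all 8 lists: it lies between H2-Aa and H2-Eb1 (chr17:34300279-34301855), 4012 bp before the start of H2-Eb1, and its score stood at a median percentile of 76.7 within a list. A region in the body of H2-Eb1 (chr17:34309191-34310500) was in 6 lists, among them all 4 Fed lists. The regions over the starts of H2-Aa and H2-Eb1 were in 4 lists each, and the one over the lower end of H2-Ab1 in 3. In the flanks of the 7 members, peaks at ends of neighbouring genes were counted once for each locus, with other members among the neighbours. They numbered 12 and 11 for H3K27ac in the Fed lists without tetracycline, 5 and 9 in the Fast lists without it, 4 and 5 in the Fed lists with it and 9 and 2 in the Fast lists with it. These counts thus partly repeat the member ends. At Ciita, whose neighbours are not members, they were 4 and 4, 4 and 6, 4 and 4, and 3 and 1 in the same order.

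**Figure D2:**
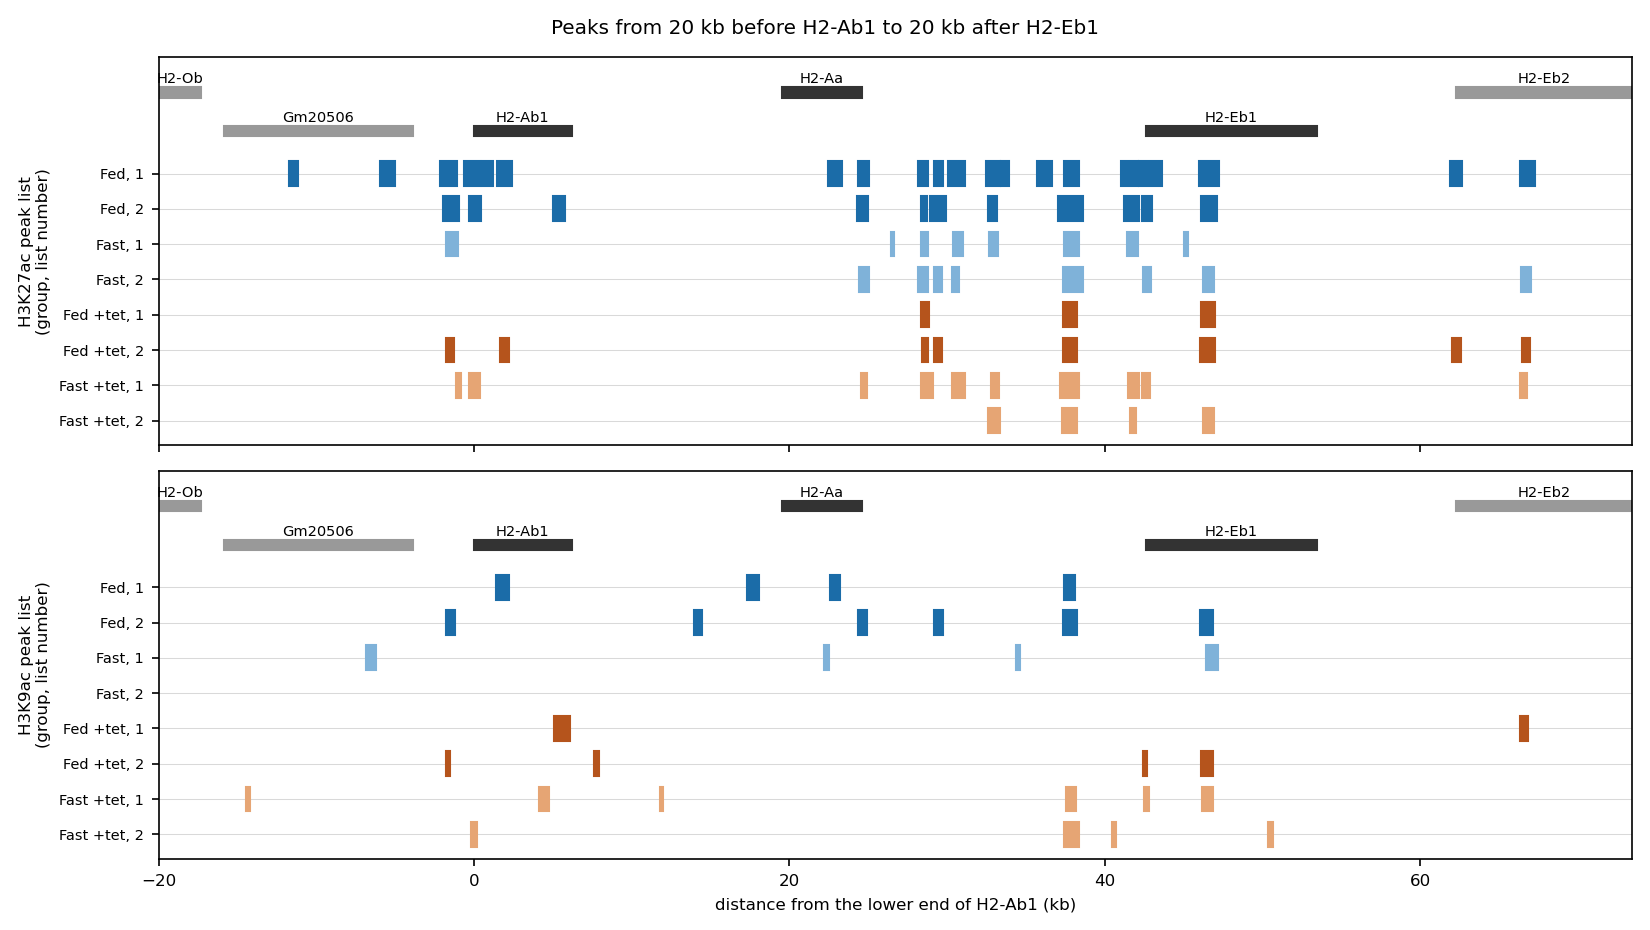
Peaks of H3K27ac (top) and H3K9ac (bottom) by distance in kb from the lower end of H2-Ab1, 1 row per list, with members as dark bars and other genes as grey bars above. The H3K27ac rows of the Fed mice without tetracycline hold 20 and 11 peaks, and the region near 38 kb is filled in all 8 rows.

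H2-DMa and H2-DMb1, which encode the peptide-loading molecule, differed from each other in coverage. Much of the coverage at H2-DMa was a peak shared with an overlapping gene. H2-DMa (chr17:34119693-34139101) was covered by H3K27ac over 8.74 and 10.4 kb in the Fed lists without tetracycline, 8.28 and 9.07 kb in the Fast lists without it, 6.46 and 9.07 kb in the Fed lists with it and 8.57 and 8.73 kb in the Fast lists with it, and the groups overlapped. Of the 7 members it alone had a gene end marked throughout, in 8 of 8 lists of each mark. Over all protein-coding genes 33.6% and 21.1% were marked in all 8 lists of the mark, so 1 of 7 members is no more than the background. The peak at its lower end (chr17:34117790-34124308) also covers the start of Brd2, which encodes a reader of acetylated histones, lies on the minus strand and overlaps H2-DMa. That lower end lies inside Brd2 (chr17:34112019-34122814), and the widest H3K27ac peak there was 4340 to 6485 bp long in a list. As the peak also covers a promoter entry of H2-DMa (chr17:34122582-34122831), it cannot be assigned to 1 of these genes. Apart from this peak, a body region (chr17:34126022-34128475) was in all 8 lists and another (chr17:34134935-34136094) in 7, the exception being 1 Fed list with tetracycline.

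H2-DMb1 (chr17:34153191-34160229) had 1.94 and 1.98 kb of H3K27ac in the Fed lists without tetracycline, 0.536 and 0.875 kb in the Fast lists without it, 0 and 1.13 kb in the Fed lists with it and 1.87 and 0.835 kb in the Fast lists with it. The lead of the first pair over list 1 of the Fast mice with tetracycline was small. Only 1 region of this locus covered an end of the gene: it spans the start and the H2-DMb1 promoter shown above (chr17:34152515-34153751) and had a peak in both Fed lists without tetracycline, in neither Fast list without it, in neither Fed list with it and in 1 Fast list with it. The rest of its H3K27ac coverage lay in its flank, inside the body of H2-DMa and, in 1 list, inside the neighbour H2-DMb2.

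**Figure D3:**
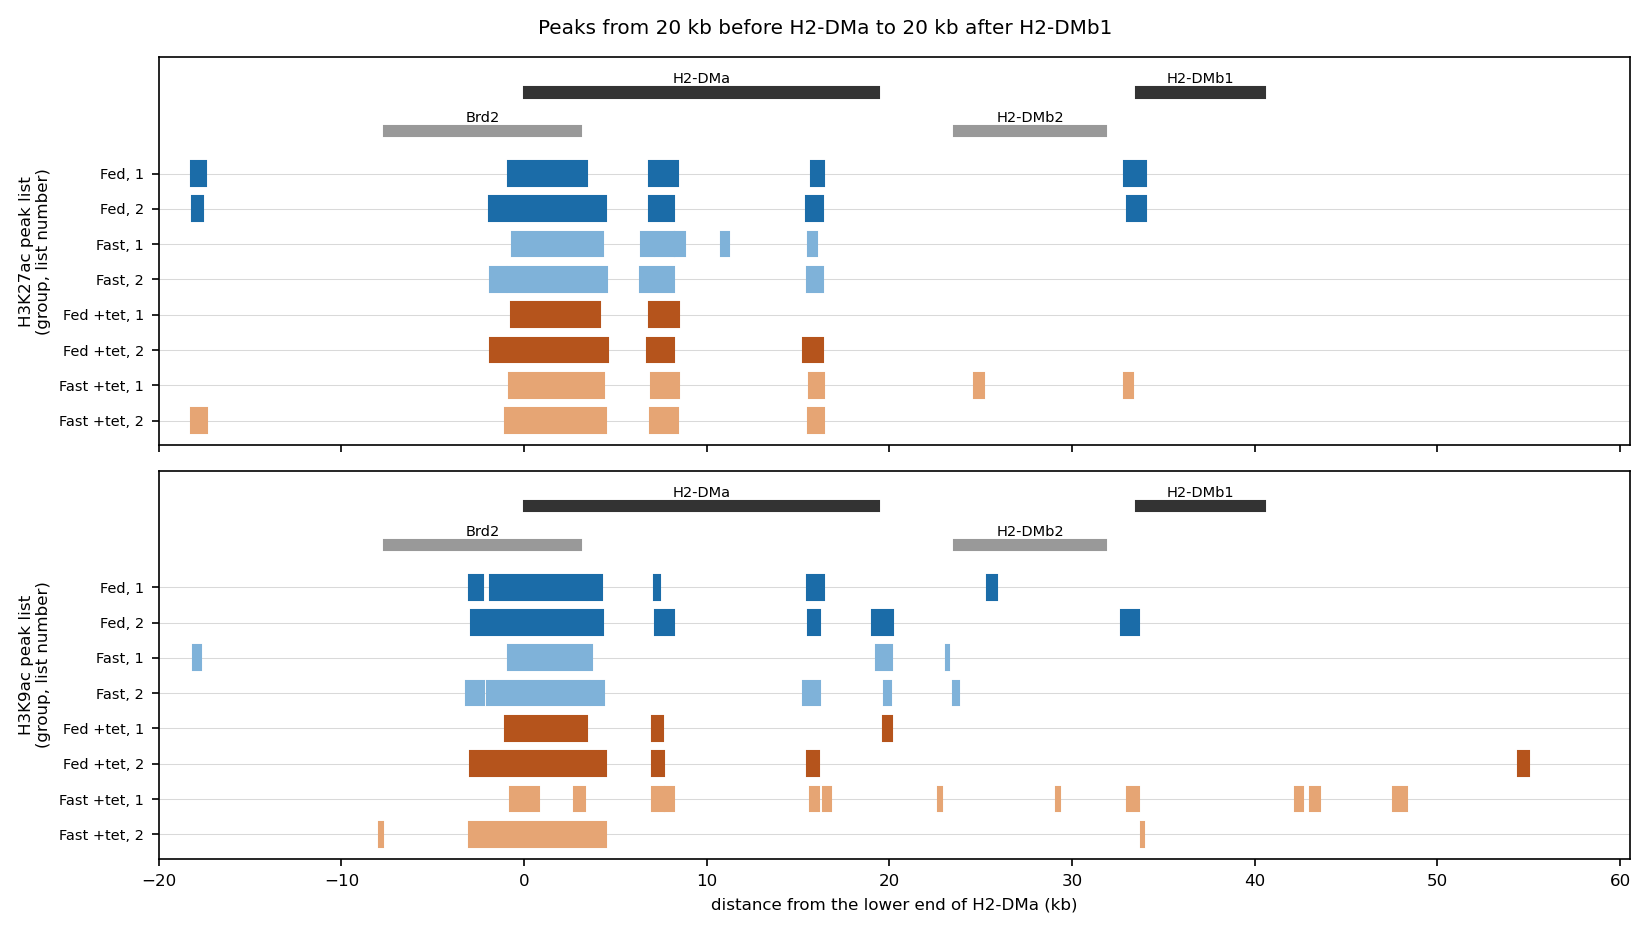
Peaks of H3K27ac (top) and H3K9ac (bottom) by distance in kb from the lower end of H2-DMa, 1 row per list, with members as dark bars and other genes as grey bars. The peak over the overlap of Brd2 and H2-DMa is present in every row, and the H3K27ac peak at the start of H2-DMb1 in 3 of 8.

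Cd74 (chr18:60803849-60812652), the invariant chain, had 4.33 and 0.784 kb of H3K27ac in the Fed lists without tetracycline, 0.241 and 0 kb in the Fast lists without it, 0.632 and 0 kb in the Fed lists with it and 0 kb in both Fast lists with it. A region in its body (chr18:60804331-60806585) had a peak in both Fed lists without tetracycline and in no other list. The first list carried most of this coverage, and the second stood little above list 1 of the Fed mice with tetracycline.

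Ciita (chr16:10480014-10531064), the co-activator, followed another course in kb with flanks of 20 kb. With flanks of 5 kb, or per Mb covered by the list, both Fed lists without tetracycline lay above the 6 others at Ciita too. Its locus had 9.42 and 11.4 kb of H3K27ac in the Fed lists without tetracycline, 6.66 and 10.7 kb in the Fast lists without it, 6.00 and 10.1 kb in the Fed lists with it and 5.64 and 5.44 kb in the Fast lists with it. Both Fast lists with tetracycline lay below the 6 others. That pattern was noticed after the values were seen, and no share of all genes stands beside it. Much of this lay outside the gene. Below its lower end, 3 regions (chr16:10458786-10461028, chr16:10463606-10466134 and chr16:10470881-10473040, the last in the non-coding gene Gm41420) were in all 8 lists, at median percentiles of 90.6, 91.3 and 90.0. Regions over the starts of the neighbours Dexi and Clec16a were in 7 lists each, the exception being list 2 of the Fast mice with tetracycline. Inside Ciita, a region (chr16:10524599-10526317) was in 4 of 4 Fed lists and 1 of 4 Fast lists, and another (chr16:10495564-10496566) in 6 of 8. An end of Ciita was marked in 1 H3K27ac list and in 0 H3K9ac lists. Ciita has several start sites used by different cell types, and the RefSeq table used here gives only the ends of the whole gene.

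**Figure D4:**
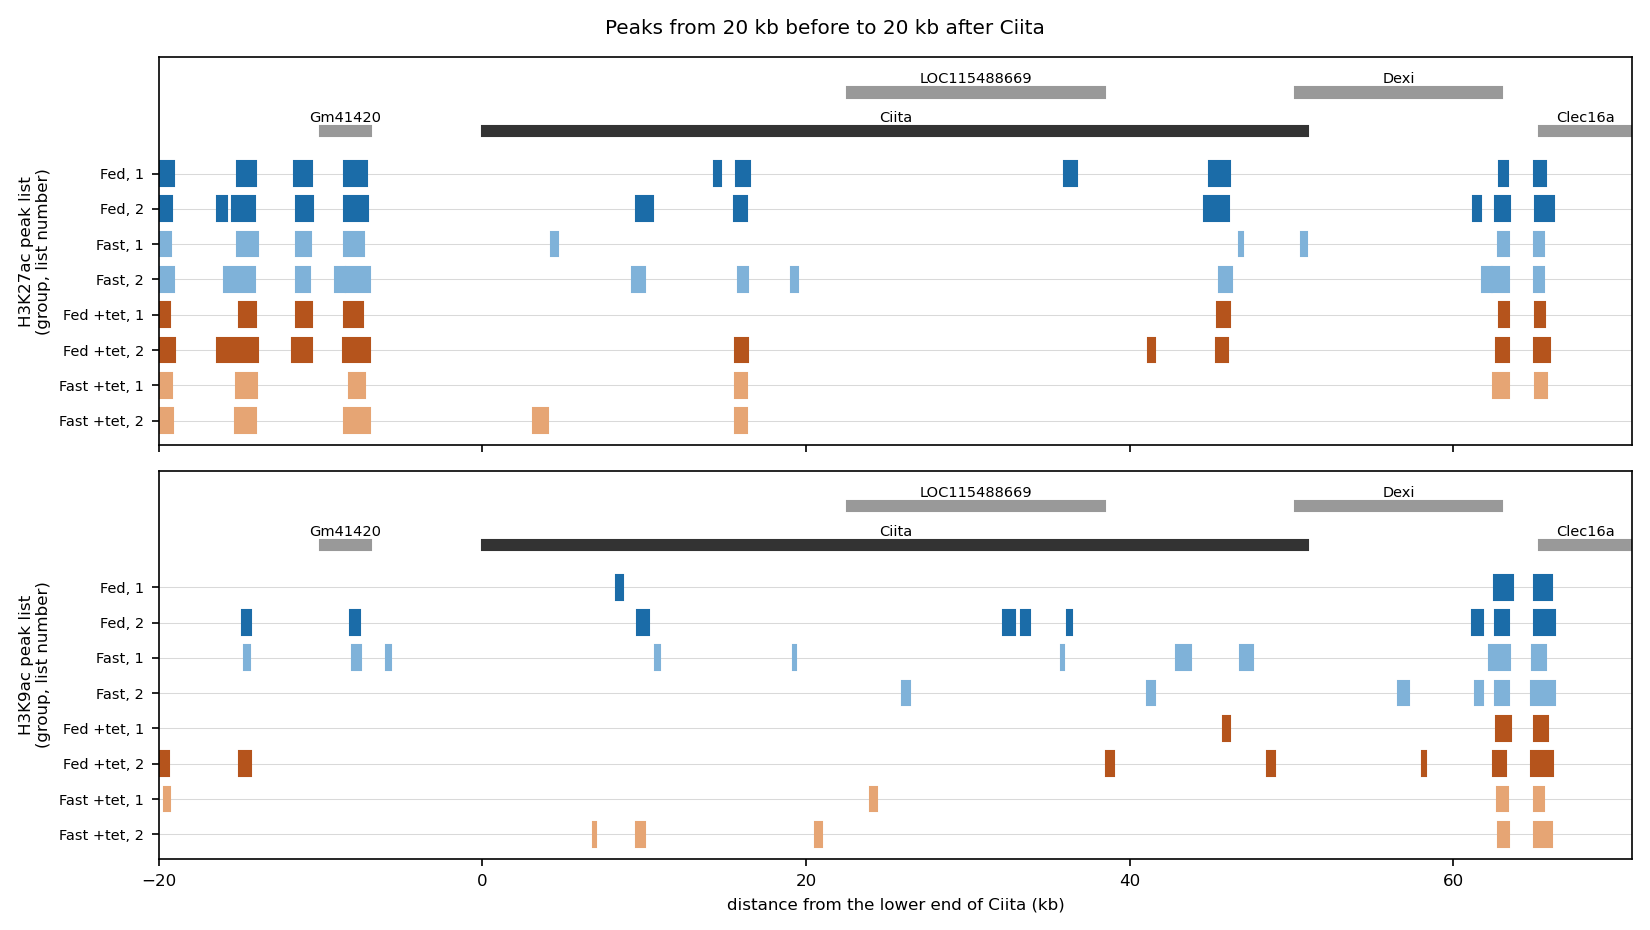
Peaks of H3K27ac (top) and H3K9ac (bottom) by distance in kb from the lower end of Ciita, 1 row per list, with Ciita as a dark bar and other genes as grey bars. The 3 regions on the left that all 8 H3K27ac rows share lie outside Ciita, and peaks within the gene vary from row to row.

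Set against all genes, the Fed mice without tetracycline stood apart at 5 of the 7 members: both of their H3K27ac lists lay above the 6 others for H2-Ab1, H2-Aa, H2-Eb1, H2-DMb1 and Cd74. This held for 1.28% of the 18863 genes with any H3K27ac coverage. The corresponding counts were 0 of 7 for the Fast lists without tetracycline (12.1% of genes), 0 of 7 for the Fed lists with it (0.419%) and 0 of 7 for the Fast lists with it (1.34%). The comparison was chosen after the values had been seen, and the 5 genes are 3 separate stretches of the genome. The count was 2 of 7 (H2-Aa and H2-Eb1, against 1.09% of genes) with the upper 0.5 of each list by score, and 5 of 7 (Ciita in place of Cd74, against 4.32%) per Mb covered by the list. With flanks of 5 kb it was 6 of 7, Ciita among them, against 1.52% of genes. With equal numbers of peaks it was 4 of 7, against 2.68%. Leaving out lists gave 5 to 7, but with fewer lists the count cannot fall, and no share of all genes stands beside it.

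The planned comparison of all lists with and without tetracycline averaged the difference over Fed and Fast mice. H3K27ac coverage was lower with tetracycline for 7 of 7 members, with a median difference of -2.29 kb, beside 69.2% of all genes lower and a median of -0.19 kb. Per Mb covered by the list, 7 of 7 members and 50.1% of all genes were lower. The differences ran from -3.96 kb at H2-Aa and -3.58 kb at H2-Eb1 to -0.38 kb at H2-DMb1. No member had its 4 lists with tetracycline clear of the 4 without it, which 1.59% of genes had. The exact permutation p-values over 36 arrangements within the feeding states lay between 0.111 (H2-Eb1 and Ciita) and 0.611 (H2-DMb1), and each was 1.0 after Benjamini-Hochberg adjustment over all genes; the smallest p this design allows is 0.0556, so that it cannot pass 0.05. Within Fed mice 7 of 7 members were lower with tetracycline, at a median of -2.35 kb, where 44.5% of all genes were lower. The direction held with lists left out, but the sizes did not: without all lists numbered 1 and without all numbered 2, the Fed difference was -2.20 and -6.89 kb at H2-Ab1, -5.15 and -10.8 kb at H2-Aa and -3.12 and -10.2 kb at H2-Eb1. At Cd74 it was -0.47 and -4.01 kb without list 1 or list 2 of the Fed mice without tetracycline, and at Ciita and H2-DMa -0.28 and -0.49 kb without list 1 of the Fed mice with it. Within Fast mice 5 of 7 were, at a median of -0.04 kb, where 72.8% of all genes were lower.

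Feeding came second. Without tetracycline, H3K27ac coverage was lower in Fast than in Fed mice for 7 of 7 members, with a median difference of -2.44 kb, whereas 20.7% of all genes were lower and 76.3% higher. The H2-Ab1, H2-Aa and H2-Eb1 differences were -4.37, -6.09 and -5.16 kb, and with lists left out they ran from -6.19 to -2.55, from -8.68 to -3.51 and from -8.72 to -1.60 kb. The Ciita difference was 0.23 kb without list 1 of the Fast mice without tetracycline, which leaves 6 of 7 members lower. With tetracycline 2 of 7 members (Cd74 at -0.32 kb and Ciita at -2.53 kb) were lower in Fast mice and 5 higher, at a median of 0.79 kb, near the 31.8% of all genes lower and 59.4% higher, whose median was 0.19 kb. Over both states no member had Fed and Fast lists that did not overlap, which 5.73% of genes had, and the exact permutation p-values lay between 0.167 and 1.0. Per Mb covered by the list, 7 of 7 members and 49.9% of all genes were lower in Fast mice over both states (6 of 7 and 23.2% in kb), and Ciita alone had lists that did not overlap (7.52% of genes). The difference of the feeding effects between the 2 states was not tested.

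Counts of marked members were also high in these mice, with a tie in 1 list. In the Fed lists without tetracycline 6 and 5 of the 7 members had an H3K27ac peak at a gene end, in the Fast lists without it 3 and 3, in the Fed lists with it 1 and 1, and in the Fast lists with it 5 and 2. Of all genes 42.9 to 50.7% were marked in a list, so that 3 of 7 is near this share, 5 or 6 above it and 1 or 2 below it. Every Fast list was thus below the Fed lists without tetracycline and above them with it. Of the H3K27ac peaks in the loci, those at member gene ends numbered 9, 8, 3, 4, 1, 1, 7 and 2 in the same order of lists, while those in the bodies numbered 9, 7, 8, 7, 4, 7, 3 and 5.

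In H3K9ac fewer members set the Fed mice without tetracycline apart. Both Fed lists without tetracycline lay above the 6 others at 2 of 7 members, beside 0.471% of the 21025 genes with any H3K9ac coverage. H2-Aa had 2.85 and 2.60 kb in these lists, 0.569 and 0 kb in the Fast lists without tetracycline, 0.985 and 0.575 kb in the Fed lists with it and 1.84 and 1.54 kb in the Fast lists with it. H2-Ab1 had 2.15 and 1.68 kb, 0.974 and 0 kb, 0.985 and 0.546 kb, and 1.05 and 0.387 kb in the same order. No member followed this pattern for the Fast lists without tetracycline (3.02% of genes), the Fed lists with it (0.604%) or the Fast lists with it (4.93%). This count is not firm. It was 0 with the upper 0.5 of each list by score (0.814% of genes) and 1 with flanks of 5 kb (0.816%). With equal numbers of peaks it was 2, but these were H2-DMa and H2-DMb1 (4.42% of genes). Per Mb covered by the list it was 2, H2-Aa and H2-Eb1 (3.45%). It was 5 without list 1 of the Fed mice without tetracycline, 7 without all lists numbered 1 and 3 without all lists numbered 2. With fewer lists the count cannot fall, and no share of all genes stands beside these 3 values.

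H2-Eb1 had 1.25 and 2.91 kb of H3K9ac in the Fed lists without tetracycline, 0.946 and 0 kb in the Fast lists without it, 0.510 and 1.05 kb in the Fed lists with it and 1.68 and 1.502 kb in the Fast lists with it. As at H2-Aa, Fast lists were lower than Fed lists without tetracycline and higher with it. H2-DMa ranged from 5.30 to 11.002 kb, H2-DMb1 from 0.2 to 3.78 kb, Cd74 from 0 to 3.02 kb and Ciita from 2.09 to 6.46 kb, and in these 4 loci the lists of a group spread as widely as the groups. The region between H2-Aa and H2-Eb1 that carried H3K27ac in all 8 lists carried H3K9ac in 4 (chr17:34300583-34301566), namely both Fed lists without and both Fast lists with tetracycline. H2-Ab1 to H2-Eb1 had no H3K9ac peak at all in list 2 of the Fast mice without tetracycline.

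Averaged over feeding, 7 of 7 members were also lower in H3K9ac with tetracycline, at a median of -0.46 kb, where 43.7% of all genes were lower. It was 7 of 7 against 52.5% per Mb covered by the list, 6 of 7 against 52.1% with equal numbers of peaks and 5 of 7 against 45.0% with the upper 0.5 of each list. With flanks of 5 kb it was 4 of 7 against 45.7%, which is near the background. None of the 7 had lists that did not overlap, against 0.813% of genes for tetracycline and 3.49% for feeding. With equal numbers of peaks H2-Ab1 had Fed and Fast lists that did not overlap (5.36% of genes). The exact permutation p-values for tetracycline lay between 0.167 and 0.833, each 1.0 after adjustment over all genes. In Fast against Fed mice, 6 of 7 members were lower without tetracycline, where 32.7% of all genes were, and 3 of 7 with it, near the 30.3% of all genes. Members marked at a gene end numbered 1 and 4 in the Fed lists without tetracycline, 1 and 1 in the Fast lists without it, 2 and 2 in the Fed lists with it and 3 and 4 in the Fast lists with it. Of all genes 41.1 to 53.2% were marked in a list, so that 3 or 4 of 7 is near this share and the other counts lie below it.

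Of the 37 other genes of the pathway, 1 had non-overlapping Fed and Fast lists in H3K27ac and none had non-overlapping lists by tetracycline, beside 5.73% and 1.59% of all genes. In H3K9ac it was 1 of 37 by each factor, beside 3.49% for feeding and 0.813% for tetracycline, so that the counts by feeding are not above the background. The gene in H3K27ac was Rfxap, a subunit of the X box factor RFX, with 0.856 to 1.75 kb in the Fed and 1.78 to 2.19 kb in the Fast lists. In H3K9ac, Nfya, a subunit of the Y box factor NF-Y, had 0 to 2.03 kb without and 2.10 to 2.49 kb with tetracycline, 1 gene of 37. Irf1, an interferon-induced transcription factor that activates Ciita, was the 1 gene of 37 by feeding, with H3K9ac over 7.39 to 13.2 kb in the Fed and 2.95 to 5.13 kb in the Fast lists. These 3 had the smallest exact permutation p of 0.0556, and adjusted over all genes 0.609, 1.0 and 0.905.

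Both Fed lists without tetracycline lay above the 6 others in H3K27ac at 3 of the 37 (H2-Ob, H2-Oa and Irf1) and in H3K9ac at 1 (Irf1), beside 1.28% and 0.471% of all genes. H2-Ob and H2-Oa encode H2-DO, which restrains H2-DM, and their loci share sequence with those of H2-Ab1 and H2-DMa. For Irf1 the H3K27ac gap was small, with 26.1 and 25.4 kb against 25.3 kb in the next list. Among the other groups of genes, all 7 of the interferon gamma pathway and 6 of 7 enhanceosome genes (all but Nfyc) were marked by H3K27ac in each of the 8 lists, beside 33.6% of all genes. Of the 10 genes of the MHC class I pathway 7 to 10 were marked, of the 5 lysosomal genes 4 or 5, and of the 4 co-stimulatory genes 1 to 3. Of all genes 42.9 to 50.7% were marked in a list. None of the class I, lysosomal, enhanceosome or co-stimulatory genes followed the pattern of the 5 class II members. As 1.28% of all genes did, none among so few genes is near the background.

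Marker genes of other cell types were measured in the same way, since the labels name no sort. The 8 T cell markers had a summed H3K27ac coverage of 35.7 and 22.3 kb in the Fed lists without tetracycline and 6.40 to 26.0 kb in the other lists, with 5 and 4 against 1 to 5 of them marked. The 3 leukocyte markers had 14.2 and 8.62 kb against 1.37 to 9.84 kb, with 2 and 2 against 0 to 2 marked. These sums overlapped. The class II pattern held for 1.28% of all genes. It held for larger shares of these few genes, 1 of the 8 T cell markers and 1 of the 3 leukocyte markers. The T cell marker was Cd3e (5.75 and 4.09 kb, against at most 3.78 kb), a chain of the T cell receptor complex. The leukocyte marker was Laptm5 (6.46 and 3.97 kb, against at most 3.07 kb), a lysosomal protein of leukocytes. Ptprc, with 3.64 and 1.63 kb against 2.69 and 3.81 kb in the Fast lists without tetracycline, did not follow the pattern. The 9 dendritic cell and macrophage markers had 18.4 and 18.4 kb against 10.8 to 22.2 kb (3 and 2 against 1 to 3 marked), the 7 B cell markers 13.9 and 15.5 kb against 9.57 to 17.7 kb (2 and 1 against 1 to 3 marked), and none of these 16 followed it. Single markers of these cells differed: Cd79a (median coverage 5.47 kb over the 8 lists), of the B cell receptor, and Xcr1 (1.86 kb), a dendritic cell receptor, had an H3K27ac peak at a gene end in 8 of 8 lists, and Spi1 in 5 of 8. Of all genes 33.6% were marked in all 8 lists, so 2 of 16 is below this share. Peaks covered as little as 90 bp at the ends of Cd79a, in list 1 of the Fast mice with tetracycline. Flt3 and Zbtb46 had median coverages of 6.76 and 5.50 kb with no marked end, the median was 0 at Pax5, Blk, Batf3, Cx3cr1 and Cd2, and no fibroblast or endothelial marker had an H3K27ac peak at a gene end. In H3K9ac none of the markers followed the pattern, and the sums for T cells (9.52 and 14.5 kb against 6.02 to 15.4 kb) and leukocytes (3.90 and 5.19 kb against 1.21 to 7.93 kb) overlapped. The part of such cells in the class II values was not tested.

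**Figure D5:**
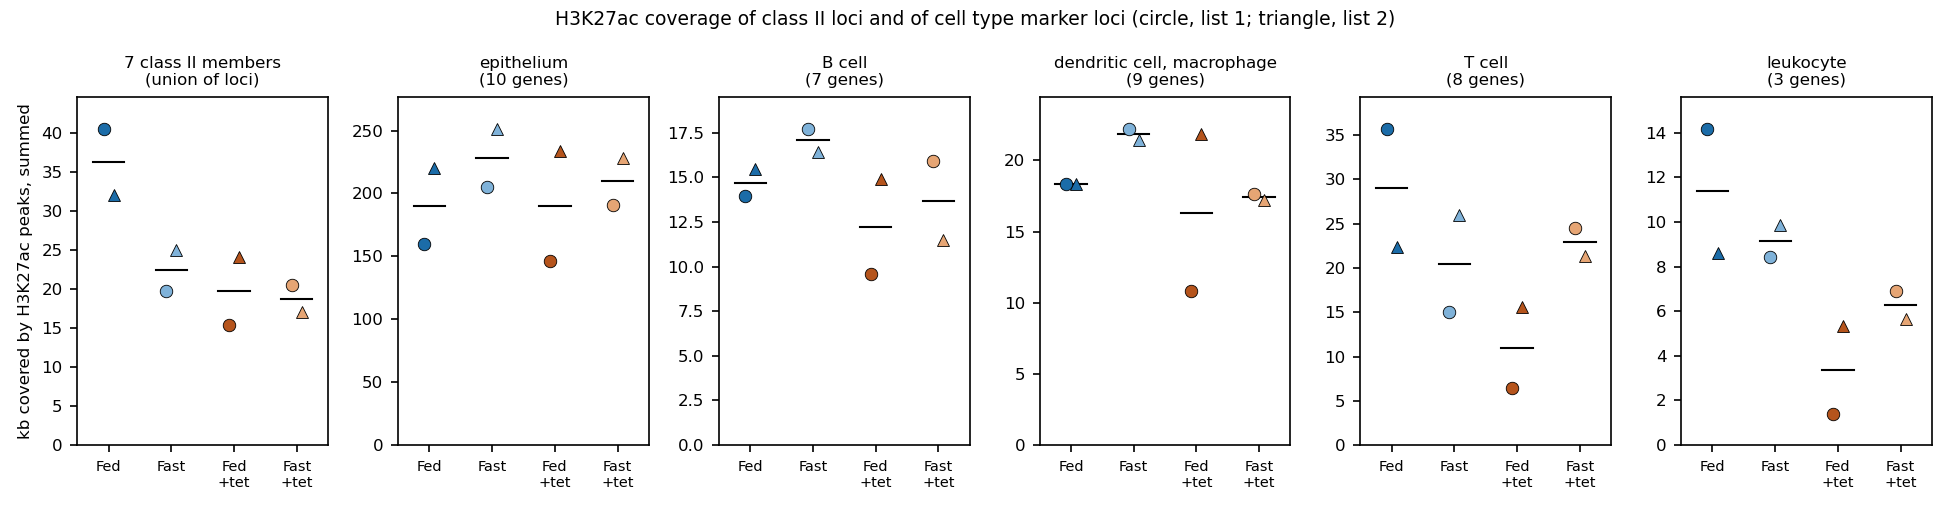
Kilobases covered by H3K27ac peaks at the union of the 7 class II loci and, summed over genes, at the loci of cell type markers, by group and list, with a line at the mean of the 2 lists. The Fed lists without tetracycline stand above all others for the class II loci (40.5 and 32.0 kb) and overlap the others for each marker list.

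The genes most like the members were sought over 1 Mb away, by Pearson's r of gene-end coverage over the 16 lists, centred within each mark, with the sum over the 7 members. The highest were Tyrobp (r = 0.91), a signalling adaptor of myeloid and natural killer cells, and Epop (r = 0.90), a partner of the Polycomb complex. Then came the overlapping Cd300c2 and Cd300ld4 (both r = 0.88), receptors of myeloid cells, and Pvrig (r = 0.88), an inhibitory receptor of T and natural killer cells. At the ends of Tyrobp, H3K27ac peaks covered 2421 and 1463 bp in the Fed lists without tetracycline, 340 and 409 bp in the Fast lists without it, 0 and 644 bp in the Fed lists with it and 875 and 0 bp in the Fast lists with it. These are descriptions over 16 lists that share libraries with the members, picked as the highest of all genes.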

How the data were processed

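Peak lists of H3K27ac and H3K9ac CUT&Tag were analysed for 4 groups of mice, with 2 lists in each of 8 samples. Per the submitters' processing notes, FastQC, Bowtie and SAMtools were used with the build mm10. The sample titles name mouse IgG with H3K27ac and rabbit IgG with H3K9ac and do not say what this IgG was. Read totals, the use of an IgG control and the version and threshold of the peak caller are not given in the sources used here. Peak names begin with MACS, and the names under which the lists were deposited call them downsampled. The score of each peak, as the authors deposited it, has no stated unit, was at least 50 and served only to rank peaks within a list.

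Peaks on chromosomes 1 to 19, X and Y were laid over RefSeq's gene table for GRCm38.p6 with Python 3.11.15, numpy 2.4.6 and pandas 2.3.3 (figures with matplotlib 3.10.9). Coverage was the length of peaks in a gene body plus 20 kb on each side, and a gene was marked when a peak overlapped by 1 bp or more the 1 kb around a gene end. Within a mark, peaks of its 8 lists that overlapped were joined to regions. Tetracycline was tested by exact permutation within feeding states and feeding within tetracycline states, two-sided, with Benjamini-Hochberg adjustment over the 18863 (H3K27ac) or 21025 (H3K9ac) genes with any coverage. The counting was tested on simulated data. A start was taken only where the promoter table gives the strand, otherwise ends are called lower and upper. The members, the pathway and marker lists and the rule for named genes were chosen with earlier results of these data known. That rule names the 7 members, their protein-coding neighbours, pathway genes with non-overlapping lists and the 5 genes most like the members; the genes above the 6 other lists in the Fed mice without tetracycline and the regions were named after their values were seen.

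Deviations of same-numbered lists from their group means, over genes, correlated at 0.27 to 0.72 for all 6 pairs of groups in H3K27ac. These deviations were in kb and not scaled by the length a list covers. List size alone can therefore raise the correlations, and they cannot show that the numbers are pairs. The numbers served as pairs in the replicate block only. Alternatives were the peaks in the upper 0.5 of a list by score, equal numbers of top-scoring peaks, scaling by the length covered, flanks of 5 kb, a window of 2.5 kb, 0.5 of the peak inside the window, the replicate block and leaving out lists. The comparison of 1 group with the 6 other lists, the differences within 1 feeding or tetracycline state and peaks at least 500 bp wide were added after the data were seen.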

Additional observations from a re-analysis of the deposited data

Results flagged for a closer look

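In 5 results every list of one state moved one way and every list of the other state the opposite way and none of these differences between states was tested. The number of members with an H3K27ac peak at a gene end was 2.5 higher in Fast than in Fed mice with tetracycline (5 and 2 against 1 and 1), and the difference was -2.5 without it (3 and 3 against 6 and 5). H3K9ac coverage of the H2-Aa locus differed between Fast and Fed mice by 0.908 kb with tetracycline and by -2.44 kb without it. By tetracycline, the same values gave a difference of 1.40 kb in Fast mice and of -1.95 kb in Fed mice. H3K9ac coverage of the H2-Eb1 locus differed between Fast and Fed mice by 0.811 kb with tetracycline and by -1.61 kb without it, and by tetracycline by 1.12 kb in Fast mice and -1.30 kb in Fed mice. The loci of these 2 genes share sequence, so they are not separate cases.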

How the results depend on the processing

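H3K27ac differences by tetracycline kept their direction at all 7 members under each alternative run, lists left out included. Elsewhere 19 differences over both states turned direction; the cause was not tested. With flanks of 5 kb, H3K9ac by tetracycline became 0.31 kb at H2-Ab1, 0.31 kb at H2-Eb1 and 0.27 kb at H2-DMb1, and by feeding 0.146 kb at H2-Eb1, -0.0855 kb at Cd74 and 0.19 kb at Ciita. With the upper 0.5 of each list, H3K9ac by tetracycline became 0.32 kb at H2-Eb1 and 0.0110 kb at Cd74, and H3K27ac by feeding 0.12 kb at H2-DMb1. With equal numbers of peaks, H3K9ac by tetracycline became 0.12 kb at H2-Eb1, and by feeding it was -0.70 kb at H2-DMb1 and -0.41 kb at Cd74, with -0.47 kb for H3K27ac at H2-DMa. Per Mb covered, feeding gave -0.0109 and -0.0131 kb per Mb in H3K9ac at H2-DMb1 and Cd74 and -0.0345 kb per Mb in H3K27ac at H2-DMa; only Ciita (H3K27ac) then had non-overlapping Fed and Fast lists. With peaks at least 500 bp wide these 3 were -0.432, -0.0430 and -0.225 kb.

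Leaving out lists turned 8 of the differences over both states in some settings. By feeding in H3K27ac the ranges were -0.82 to 0.82 kb at H2-DMa and -0.70 to 0.23 kb at H2-DMb1. By feeding in H3K9ac they were -1.23 to 0.43 kb at H2-Eb1, -1.08 to 1.46 kb at H2-DMb1, -1.22 to 1.72 kb at Cd74 and -1.79 to 1.499 kb at Ciita. By tetracycline in H3K9ac they were -0.51 to 0.32 kb at H2-Eb1 and -1.52 to 0.87 kb at H2-DMb1. Of the differences by tetracycline in Fed mice and by feeding without tetracycline, 4 also crossed 0: Ciita by feeding in H3K27ac (-3.76 to 0.23 kb) and in H3K9ac (-1.87 to 3.09 kb), Cd74 by feeding in H3K9ac (-2.28 to 1.38 kb) and Ciita by tetracycline in H3K9ac (-3.02 to 0.73 kb).

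Members marked by H3K27ac at a gene end differed by -2.0 with tetracycline (-2.75 to -1.25 with lists left out) and by 0 with fasting (-0.75 to 0.75). The fasting value moved to -1.25 with the upper 0.5 of each list and to -1.75 with equal numbers of peaks. The count of members highest in both Fed lists without tetracycline moved from 5 to 2 in H3K27ac with the upper 0.5 of each list (1.09% of genes). In H3K9ac it moved from 2 to 0 with that choice (0.814%) and to 1 with flanks of 5 kb (0.816%). With lists left out the H3K9ac count ranged from 2 to 7, but fewer lists cannot lower it and no share of all genes stands beside it.

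With the replicate block the value stayed at -2.0, and the exact p-values of single members were 0.125 or larger, the smallest that 4 pairs allow; it changed no call. In H3K9ac same-numbered lists deviated together in some pairs of groups only (correlations of -0.10 to 0.49), so there the numbers are only names. In H3K27ac the pairing is not shown either, since list size can raise the correlations. The unknown depth limits every absence of a peak.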
